A study of Mus musculus with 6 samples.

Results

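The GIMAP genes (GTPases of immunity-associated proteins) were followed in liver lymphocytes of tamoxifen-treated and oil-treated mice. The members were taken by gene name from the deposited table, which lists 8 of them, Gimap1, Gimap3, Gimap4, Gimap5, Gimap6, Gimap7, Gimap8 and Gimap9, among 15601 genes. All 8 were among the 10811 genes that passed the filter on low counts. The series held 6 RNA-seq libraries, 3 labelled tamoxifen treatment and 3 labelled oil, all from mouse liver. The labels call the cells lymphocytes and the series title names group 1 innate lymphoid cells (ILC1s, tissue-resident relatives of natural killer cells) and the nuclear receptor RORα. The sources used here do not give genotype, age, dose, timing, any Cre driver, or the number of cells and animals behind each library. Nothing says that libraries of a group came from separate animals, so p-values measure only how far these libraries spread, and that spread may be technical.

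GIMAP proteins share an AIG1-type GTP-binding domain and are found mainly in lymphocytes, where several members govern survival. In mice, loss of Gimap5 or of Gimap1 depletes lymphocytes, and the family's genes lie side by side on 1 chromosome. Some GIMAP proteins sit on the membranes of organelles, among them lysosomes and the endoplasmic reticulum. Members of the family have been linked to lymphocyte survival, lysosomal function and autophagy.

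The 8 genes filled 123618 bases of chromosome 6 in the mm10 build used by the deposited table, at chr6:48647234-48770851. In chromosomal order the genes were Gimap8 (plus strand, 48647234 to 48660875), Gimap9 (plus, 48676129 to 48679114), Gimap4 (plus, 48684549 to 48692060), Gimap6 (minus, 48701582 to 48708225), Gimap7 (plus, 48718621 to 48724636), Gimap1 (plus, 48739054 to 48743795), Gimap5 (plus, 48746197 to 48754210) and Gimap3 (minus, 48764464 to 48770851). GENCODE release M21 gives the same coordinates for all 8. The coding sequence was 2064 bases in Gimap8, which carries several GTP-binding domains, and 873 to 984 bases in the other 7.

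Gimap3 and Gimap5 are close copies, which bears on how reads can be assigned to them. Their coding sequences matched at 809 of 895 aligned bases (90.4%). The longest identical stretch, 140 bases of coding exon, lies at chr6:48765681-48765820 on the minus strand in Gimap3 and at chr6:48752684-48752823 on the plus strand in Gimap5, and reads in the GENCODE M21 transcripts:
Gimap3 and Gimap5, shared stretch: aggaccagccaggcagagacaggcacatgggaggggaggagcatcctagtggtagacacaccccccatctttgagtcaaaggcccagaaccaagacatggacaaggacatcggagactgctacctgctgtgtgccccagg
In every other pair of members the longest identical stretch of coding sequence was 9 to 17 bases. Of all 50-base words in the transcripts, 190 were shared between Gimap3 and Gimap5, which is 7.52% of the words of Gimap3 and 4.53% of those of Gimap5. The other 6 members shared none with another member. The deposited counts do not say how reads matching more than 1 gene were treated, so reads of these stretches may be split between, given to 1 of, or left out of both genes.

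The start regions are shown for the Gimap3 and Gimap5 pair, which differ in level, for Gimap4, which had the highest level per length of merged exons and the only AGGTCA, and for Gimap6, the member with the steadiest level. Each window runs from 250 bases before to 50 bases after the gene's start (RefSeq, build GRCm38.p6), 5′ to 3′ on the gene's strand. Capitals mark 4 motifs on either strand: AGGTCA (the core to which RORα and other nuclear receptors bind), TGTGGT (the core bound by RUNX factors), AGGAAG (a core bound by ETS factors) and CACCC (a core bound by KLF factors).
Gimap3, chr6:48770802-48771101, minus strand: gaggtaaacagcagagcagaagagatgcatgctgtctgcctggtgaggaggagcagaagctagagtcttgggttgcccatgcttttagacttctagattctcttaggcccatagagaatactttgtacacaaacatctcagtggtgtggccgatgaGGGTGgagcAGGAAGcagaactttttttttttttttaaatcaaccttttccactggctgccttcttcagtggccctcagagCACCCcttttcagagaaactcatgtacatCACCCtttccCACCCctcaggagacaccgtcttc
Gimap5, chr6:48745947-48746246, plus strand: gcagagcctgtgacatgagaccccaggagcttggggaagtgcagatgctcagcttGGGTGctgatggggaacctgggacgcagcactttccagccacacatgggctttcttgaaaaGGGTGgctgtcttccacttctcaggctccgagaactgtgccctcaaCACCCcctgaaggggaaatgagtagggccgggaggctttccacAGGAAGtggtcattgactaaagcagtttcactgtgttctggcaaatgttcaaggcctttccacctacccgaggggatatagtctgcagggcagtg
Gimap4, chr6:48684328-48684627, plus strand: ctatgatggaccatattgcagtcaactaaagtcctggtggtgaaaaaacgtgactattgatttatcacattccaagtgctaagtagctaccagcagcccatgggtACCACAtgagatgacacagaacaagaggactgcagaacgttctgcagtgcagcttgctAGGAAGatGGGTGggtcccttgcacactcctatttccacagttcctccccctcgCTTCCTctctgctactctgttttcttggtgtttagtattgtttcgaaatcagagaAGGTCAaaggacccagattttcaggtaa
Gimap6, chr6:48708195-48708494, minus strand: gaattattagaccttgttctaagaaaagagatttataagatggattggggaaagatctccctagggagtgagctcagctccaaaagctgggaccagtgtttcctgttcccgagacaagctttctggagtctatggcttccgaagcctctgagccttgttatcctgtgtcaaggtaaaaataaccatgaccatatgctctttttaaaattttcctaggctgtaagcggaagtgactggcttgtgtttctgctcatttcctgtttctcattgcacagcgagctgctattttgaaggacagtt
AGGTCA was found in 1 of the 9 windows of the family (Gimap8 has a pair of annotated starts), 22 bases after the start of Gimap4, and in 16.3% of all 32851 windows of this length. TGTGGT was found in 3 of the 9, those of Gimap1, Gimap4 and Gimap7, and in 16.8% of all windows. AGGAAG was found in 7 of the 9 and in 35.4% of all windows, and CACCC in 6 of the 9 and in 57.5%. The windows of the Gimap8 pair overlap and share a CACCC, which is thus counted in both. The window of Gimap6 held none of the 4 motifs, and no motifs overlapped in the windows of the family. These are matches of letters and say nothing of binding.

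Library totals were 5358622 to 5849947 counts in the tamoxifen libraries and 5289803 to 6325899 in the oil libraries (exact permutation test, two-sided, p = 0.7, the smallest possible being 0.1). All 10 markers of natural killer cells and ILC1s were measured, and their summed level, mostly Nkg7, was 8476 to 10580.0 CPM (counts scaled to library size with TMM factors) in tamoxifen libraries and 8176 to 12247 CPM in oil libraries. Ncr1, the receptor NKp46 of both cell types, had 1241 ± 91.1 CPM with tamoxifen and 1227 ± 127 CPM with oil (SD, n = 3 each). In 4 of the 10 the groups did not overlap, against 8.87% of all genes tested. Cxcr6, a chemokine receptor of liver ILC1s, had 126, 111 and 157 CPM with tamoxifen and 413, 201 and 478 CPM with oil (log2 fold change -1.47, SE 0.29). Itga1, the integrin CD49a of ILC1s, had 10.6, 19.6 and 13.4 CPM with tamoxifen and 31.9, 35.5 and 32.3 CPM with oil (log2 fold change -1.19, SE 0.29). Itga2, the integrin CD49b of natural killer cells, was also lower in estimate (-0.90, SE 0.38) and Klrb1c, the receptor NK1.1, higher (0.26, SE 0.15). None of the 10 passed the test, and the adjusted p of Cxcr6, the lowest, was 0.385 (edgeR's quasi-likelihood test). Markers of other cells, some of which also use GIMAP genes, were summed in the same way. T cell markers summed to 910.4 to 1323 CPM with tamoxifen and 1025 to 1303 CPM with oil (11 of 12 analysed here, with Cd8a not analysed here). Most of this was Trbc1 (mean 331 CPM with tamoxifen and 366 CPM with oil) and Trbc2 (362 and 365 CPM). Cd4, with 31 counts over the 6 libraries, and Cd8b1, with 8, did not pass the filter on low counts. B cell markers summed to 371 to 405 CPM with tamoxifen and 408 to 487 CPM with oil, from the 3 of 7 markers analysed here. Nearly all of this was Ighm, whose groups did not overlap (360.4 to 388 CPM with tamoxifen and 391 to 471 CPM with oil), while those of Cd79b and Cd22 did. Endothelial markers summed to 33.3 to 55.5 CPM with tamoxifen and 45.9 to 51.0 CPM with oil (4 of 9 analysed here). Pecam1 made up most of this (mean 39.0 CPM with tamoxifen and 44.9 CPM with oil). Stab2, with 28 counts over the 6 libraries, and Clec4g, with 14, did not pass the filter on low counts. Macrophage markers summed to 3.25 to 11.9 CPM with tamoxifen and 6.09 to 14.5 CPM with oil (8 of 10 analysed here). Of these only Csf1r passed the filter on low counts. It had 4.26, 3.31 and 2.10 CPM with tamoxifen and 4.98, 9.88 and 5.54 CPM with oil. Its groups did not overlap, as for 8.87% of all genes tested, and its log2 fold change of -1.07 (SE 0.51) did not pass the test. The means of the other macrophage markers went in both directions. Hepatocyte markers summed to 28.6 to 36.5 CPM with tamoxifen and 20.9 to 35.8 CPM with oil (7 of 9 analysed here). Most of this was Trf and Apoe. The groups of Trf did not overlap (22.9 to 29.1 CPM with tamoxifen and 13.4 to 21.6 CPM with oil), while those of Apoe did. Alb (7 counts over the 6 libraries), Apoa1 (9), Apoa2 (31), Fabp1 (7) and Cyp2e1 (3) did not pass the filter on low counts. The part of these cells in the GIMAP levels was not tested. Rora, the gene of the receptor in the series title, had 18.3, 13.4 and 20.4 CPM in tamoxifen libraries and 27.7, 24.9 and 19.9 CPM in oil libraries (log2 fold change -0.48, SE 0.28, adjusted p = 0.999, edgeR's quasi-likelihood test), and the groups overlapped.

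No GIMAP gene was called higher or lower in tamoxifen libraries than in oil libraries. The 95% intervals left room for ratios of 0.691 to 1.46 over Gimap1, Gimap3, Gimap4, Gimap5, Gimap6, Gimap7 and Gimap9, and of 0.476 to 1.20 for Gimap8. None of the 8 passed the test: every adjusted p was 0.999 (edgeR's quasi-likelihood test, Benjamini-Hochberg over 10811 genes), and the unadjusted p ran from 0.213 to 0.951, so 0 of 8 were under 0.05. Across all genes tested edgeR called 1 gene (0.00925%), Serpine2, named after its values were seen, and gave 3.52% an unadjusted p under 0.05. That 1 call was lost, leaving 0, without tamoxifen replicate 3. DESeq2 also called 0 of the 8 members, against 18 of 10808 genes (0.167%). In no member were the groups apart, whereas 8.87% of all genes tested had groups that did not overlap, 4.52% with tamoxifen higher and 4.35% with tamoxifen lower. In these bulk libraries, fewer cells of a type and less RNA per cell cannot be told apart.

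Among members known for lymphocyte survival, Gimap5, whose loss in mice depletes T cells and natural killer cells, had 160.4, 198 and 216 CPM in tamoxifen libraries, against 173, 162 and 215 CPM in oil libraries. The values of the groups interleave, with the lowest and the highest value both in tamoxifen libraries. The log2 fold change, tamoxifen over oil, was 0.06 (SE 0.19, 95% interval -0.35 to 0.47). Gimap1, needed for mature T and B lymphocytes in mice, had 103, 105 and 128 CPM with tamoxifen and 113, 112 and 108 CPM with oil. The oil libraries lay inside the range of the tamoxifen libraries, and the log2 fold change was 0.01 (SE 0.17, interval -0.37 to 0.40). Gimap3, the close copy of Gimap5, had 769, 1021 and 819 CPM with tamoxifen and 939, 898 and 753 CPM with oil. Its highest value was in tamoxifen replicate 2 and its lowest in oil replicate 3, and the log2 fold change was 0.01 (SE 0.17, interval -0.36 to 0.38).

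Gimap6, whose protein binds the autophagy protein GABARAPL2, had 1177, 1256 and 1319 CPM in tamoxifen libraries, against 1240.5, 1259 and 1288 CPM in oil libraries. All 3 oil values fell inside the range of the tamoxifen values. With a log2 fold change of -0.01 (SE 0.14, interval -0.32 to 0.29), Gimap6 had the narrowest interval of the family, corresponding to a ratio of 0.801 to 1.23. Gimap4, a member linked to the execution of apoptosis in T cells, had 932, 945 and 1080.1 CPM with tamoxifen and 806, 1009 and 1103 CPM with oil. Here the tamoxifen values fell inside the wider range of the oil values, and the log2 fold change was 0.02 (SE 0.16, interval -0.34 to 0.38).

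Gimap7, whose human protein hydrolyses GTP as a dimer, had 486, 375 and 497 CPM in tamoxifen libraries, against 487, 461 and 566 CPM in oil libraries. Tamoxifen replicate 2 was the lowest and oil replicate 3 the highest, with the other 4 libraries between 461 and 497 CPM. The log2 fold change was -0.16 (SE 0.17, interval -0.53 to 0.22). Gimap9 had 278, 272 and 321 CPM with tamoxifen and 256, 216 and 306 CPM with oil. Its tamoxifen mean was higher, at 290.1 ± 26.5 CPM against 259 ± 45.0 CPM with oil (SD, n = 3 each), yet the groups overlapped and the log2 fold change of 0.16 (SE 0.18, interval -0.23 to 0.55) did not pass the test.

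Gimap8 has the longest coding sequence of the family and had the fewest counts (1479 over the 6 libraries). It had 35.6, 40.3 and 36.8 CPM in tamoxifen libraries, against 40.0, 75.2 and 33.8 CPM in oil libraries. Oil replicate 2 stood apart from the other 5 libraries, with 411 counts against 183 to 257. The log2 fold change of -0.40 (SE 0.30, interval -1.07 to 0.27) was the largest in the family, and it rested on that library: without oil replicate 2 it was 0.03. The interval spans a ratio of 0.476 to 1.20, so the precision for Gimap8 was the poorest of the 8.

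**Figure D1:**
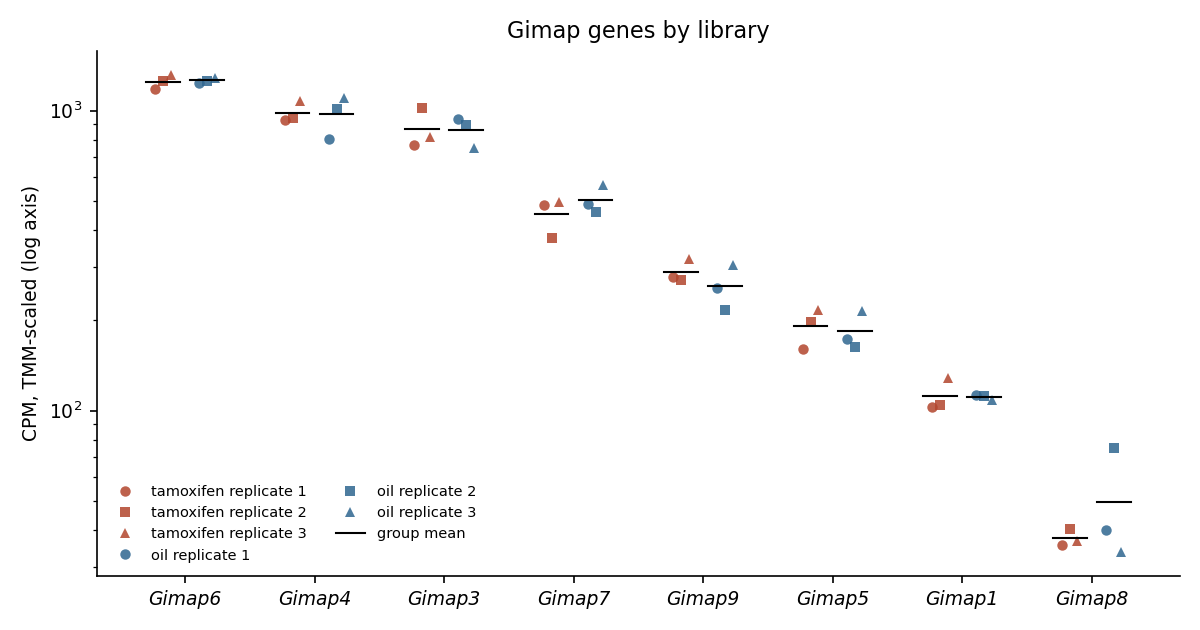
Level of each GIMAP gene in each library, in TMM-scaled CPM on a log axis, with the 3 tamoxifen libraries left of the 3 oil libraries and a line at each group mean. The groups overlap for all 8 genes, and oil replicate 2 stands apart for Gimap8 at 75.2 CPM.

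**Figure D2:**
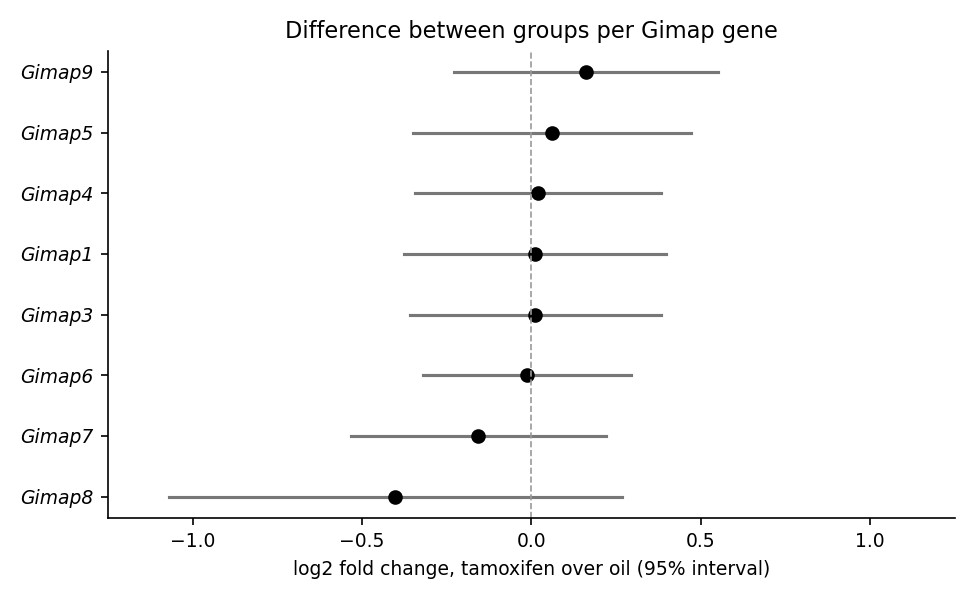
Log2 fold change of each GIMAP gene, tamoxifen over oil, from edgeR's fit across all genes, with 95% intervals as bars (3 against 3 libraries). Every interval crosses 0, from -0.40 for Gimap8 to 0.16 for Gimap9.

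The estimates for 5 members lay above 0 and those for 3 below, against 5352 above and 5459 below over all genes tested. The median absolute log2 fold change was 0.04 over the members and 0.19 over all genes tested. The members are mostly abundant genes and vary less than most: the median SD of log2 CPM over the 6 libraries was 0.18 for the members and 0.35 for all genes tested. The SD of Gimap6 stood at percentile 0.194 of all genes tested and that of Gimap8 at percentile 62.9. The coefficient of variation over the 6 libraries was 3.80% for Gimap6, where counting alone gives 1.19%, and 36.0% for Gimap8, where counting alone gives 6.57%. For the other 6 members it was 8.20% to 13.6%. Counts after PCR without molecular identifiers are not independent molecules, so counting errors here are lower limits.

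The summed level of the family spread as widely within a group as between groups. Summed over the 8 genes, the level was 3941, 4212 and 4416 CPM in tamoxifen libraries and 4053, 4192 and 4374 CPM in oil libraries, a mean of 4189 ± 238 CPM with tamoxifen and 4206 ± 161 CPM with oil (SD, n = 3 each). As a share of all counts this was 0.384%, 0.435% and 0.432% with tamoxifen and 0.412%, 0.433% and 0.417% with oil. The lowest share, in tamoxifen replicate 1, had a 95% Wilson interval of 0.379% to 0.390%, from counting error only. Tamoxifen replicate 3 was the library with the highest value for 4 members (Gimap1, Gimap5, Gimap6 and Gimap9), and tamoxifen replicate 1 was the lowest for 3 (Gimap1, Gimap5 and Gimap6). For Gimap1, Gimap5 and Gimap6 both ends of the range thus lay among the tamoxifen libraries.

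Within the family, Gimap6, Gimap4 and Gimap3 held most of the counts. Gimap6 made up 29.9% of the family's counts in tamoxifen libraries and 30.0% in oil libraries, with an SD over the 6 libraries of 0.377 percentage points. Gimap4 made up 23.5 ± 1.02% with tamoxifen and 23.1 ± 2.81% with oil, and Gimap3 20.8 ± 3.06% with tamoxifen and 20.6 ± 3.06% with oil (SD, n = 3 each). Gimap8 made up 0.898 ± 0.0609% with tamoxifen and 1.18 ± 0.539% with oil.

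**Figure D3:**
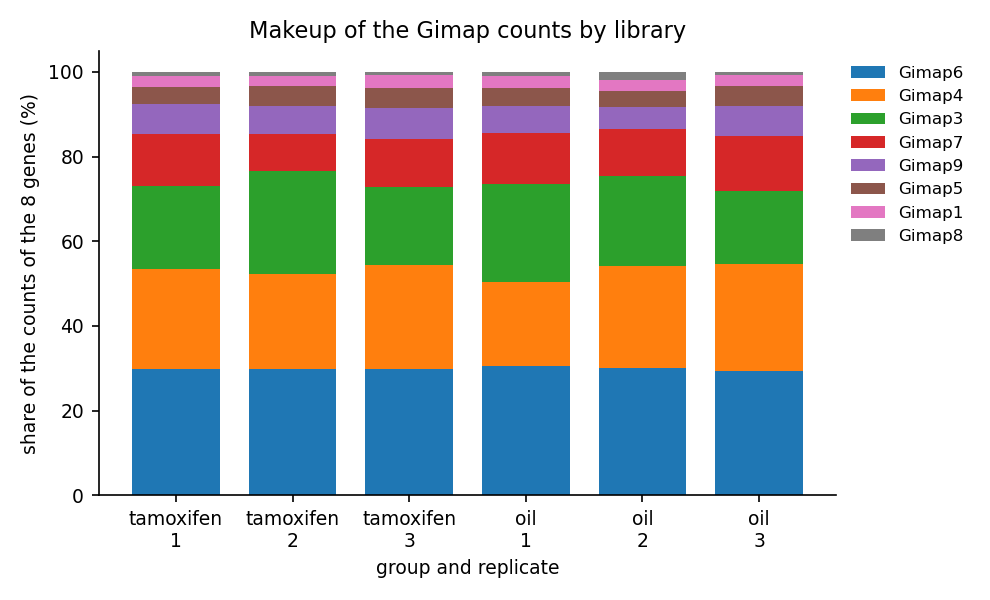
Share of the family's counts taken by each GIMAP gene in each library, in percent, with tamoxifen libraries left of oil libraries. Gimap6 takes 29.5% to 30.6% in every library, and Gimap8 is the thinnest band.

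Levels of different genes can be compared only per length, and the deposited FPKM values put the 8 genes in this order, as the mean over 6 libraries: Gimap6 at 232 ± 10.8 FPKM, Gimap3 at 211 ± 32.0, Gimap7 at 177 ± 18.5, Gimap4 at 161 ± 15.8, Gimap9 at 134 ± 14.9, Gimap5 at 34.9 ± 4.29, Gimap1 at 16.9 ± 1.41 and Gimap8 at 6.40 ± 2.48 (SD, n = 6). Among the first 5 the ranges of neighbours over the 6 libraries overlapped. Within libraries, Gimap4 was above Gimap9 in all 6, and each of the other neighbours among these 5 kept its order in 5 of 6. The ranges of Gimap9 and Gimap5, of Gimap5 and Gimap1, and of Gimap1 and Gimap8 did not overlap. By deposited FPKM, Gimap6 ranked 236th and Gimap8 5242nd of 15601 genes.

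The length behind these FPKM values is not the length of the merged exons. For all 8 members it matched the summed length of every distinct annotated exon, in which overlapping exons of different transcripts are each counted. Gimap4 was thereby given 6062 bases where its merged exons cover 1837, a ratio of 3.30, while Gimap7 was given 2698 bases where its merged exons cover 2325, a ratio of 1.16. This leaves every comparison of a gene between libraries as it is and changes the order of genes.

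On CPM per kilobase of merged exons, Gimap4 came first at 533 ± 59.7, followed by Gimap6 at 359 ± 13.7, Gimap3 at 336 ± 40.6, Gimap7 at 206 ± 26.6 and Gimap9 at 167 ± 22.6 (SD, n = 6). Gimap4 was higher than Gimap6 in all 6 libraries and their ranges did not overlap, while the ranges of Gimap6 and Gimap3 did, as did those of Gimap7 and Gimap9 and those of Gimap5 and Gimap1. Within libraries Gimap5 was nevertheless above Gimap1 in all 6, Gimap7 above Gimap9 in 5 and Gimap6 above Gimap3 in 4. Gimap5 at 45.2 ± 6.16, Gimap1 at 36.2 ± 2.97 and Gimap8 at 11.8 ± 4.24 held the last 3 places, as they did on FPKM and on CPM per kilobase of the longest protein-coding transcript. Gimap3 stood 7.57 ± 1.39 times above Gimap5 on CPM per kilobase of merged exons (range 5.63 to 8.90 over 6 libraries), 6.12 times above it on deposited FPKM and 4.28 times above it on CPM per kilobase of the longest protein-coding transcript. The stretches they share make this ratio uncertain.

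**Figure D4:**
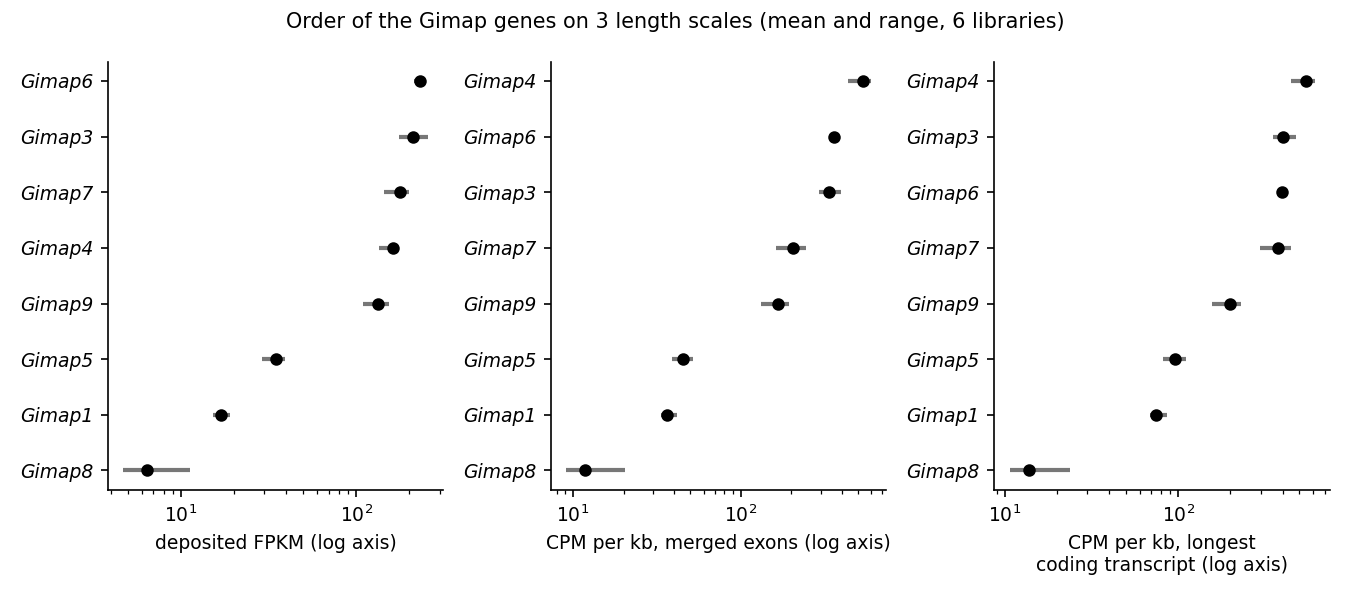
Order of the 8 GIMAP genes on deposited FPKM, CPM per kilobase of merged exons and CPM per kilobase of the longest protein-coding transcript (log axes), each point the mean and each line the range over 6 libraries. Gimap4 moves to first place on both CPM scales, and Gimap5, Gimap1 and Gimap8 stay last on all 3.

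**Figure D5:**
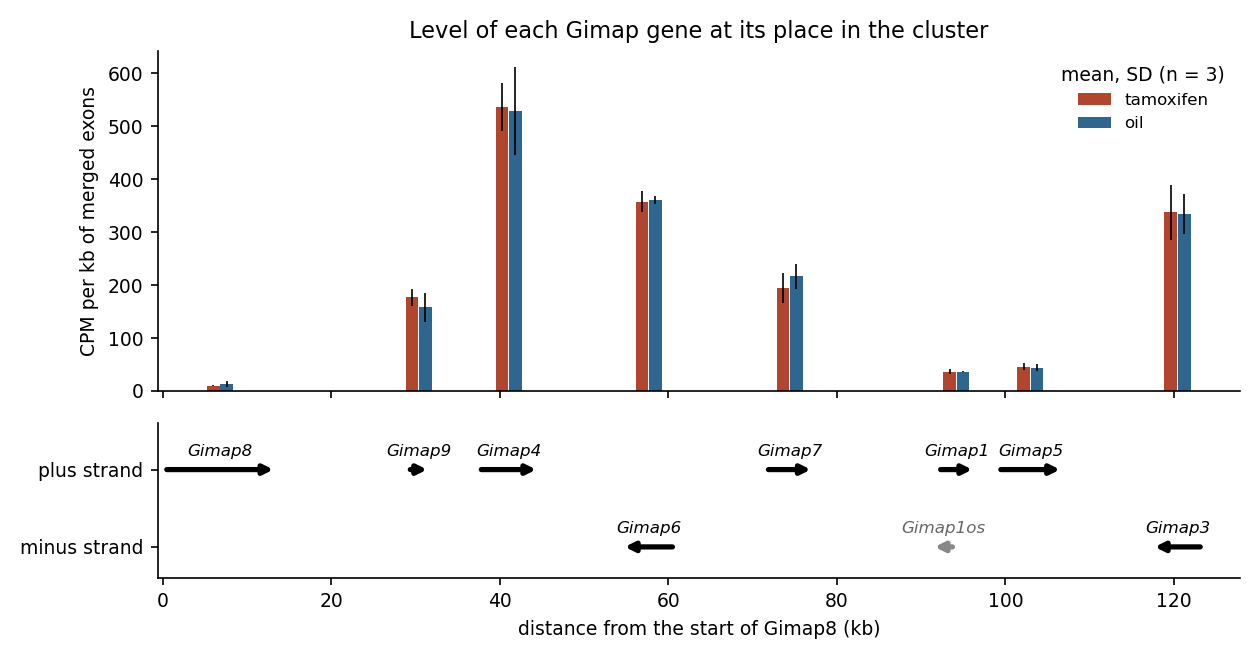
Level of each GIMAP gene at its place in the cluster, in CPM per kilobase of merged exons, as the mean and SD of 3 tamoxifen libraries (left bar) and 3 oil libraries (right bar), over a map of the genes by strand and distance from the start of Gimap8 in kilobases. The ratio of the group means is farthest from 1 at Gimap8, at 10.1 with tamoxifen and 13.4 with oil, and the level differs widely between neighbours.

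Other transcripts lie inside the cluster. Gimap1os runs opposite to Gimap1 and overlaps 1107 bases of its exons, 36.0% of them, and the sources used here do not give the strand setting, so reads of Gimap1 and Gimap1os cannot be told apart there. Gimap1os had 76.9, 39.9 and 81.1 CPM in tamoxifen libraries, against 47.0, 46.1 and 56.1 CPM in oil libraries. Its groups overlapped, since tamoxifen replicate 2 was the lowest library, and its log2 fold change of 0.41 (SE 0.28) did not pass the test. Gm28053, a protein-coding gene model on the plus strand that shares exon bases with Gimap7, Gimap1 and Gimap5, had 5.37, 5.80 and 6.87 CPM with tamoxifen and 9.48, 9.33 and 8.68 CPM with oil. Its groups did not overlap, as for 4.35% of all genes tested in that direction, and its log2 fold change of -0.61 (SE 0.37, interval -1.42 to 0.21) had an unadjusted p of 0.131 and an adjusted p of 0.999 by edgeR's quasi-likelihood test. The counts were 29 to 36 per library with tamoxifen and 47 to 61 with oil.

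Of the 3 nearest genes on either side, those past the filter did not pass the test either. Tmem176b and Tmem176a, a pair of membrane proteins encoded beside the cluster, had 138 ± 19.3 CPM with tamoxifen and 125 ± 32.4 with oil, and 92.1 ± 12.6 CPM with tamoxifen and 70.3 ± 26.8 with oil (SD, n = 3 each). The log2 fold change was 0.14 (SE 0.22) for Tmem176b and 0.39 (SE 0.28) for Tmem176a. Zfp775, a zinc finger gene, had 15.0 ± 1.52 CPM with tamoxifen and 10.1 ± 8.66 with oil, where oil replicate 3 had 5 counts, and its log2 fold change was 0.57 (SE 0.67).

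Genes whose pattern across the 6 libraries was most like that of the family were found by Pearson's r of log2 CPM with the mean of the 8 standardised profiles. The nearest were Dnajc18, a co-chaperone, at r = 0.99, Oma1, a mitochondrial protease, at r = 0.98, and Top1, a topoisomerase, Eif4a1, a translation initiation helicase, and Zfand3, a zinc finger protein, at r = 0.96 each. Of 10803 genes compared, 41 had r of 0.9 or more. The members were not all like their own mean, although each is part of that mean, which raises its r. The r was 0.97 for Gimap6, 0.82 for Gimap5, 0.78 for Gimap1 and 0.71 for Gimap4. It was 0.48 for Gimap9, 0.32 for Gimap7, -0.07 for Gimap8 and -0.18 for Gimap3. With 6 libraries these values are a description of the libraries only.

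Genes of the processes in which GIMAP proteins take part also gave no call. Of 16 genes of GIMAP protein partners and the autophagy machinery, 10 were higher and 6 lower in estimate. Their log2 fold changes had a median of 0.04 (-0.00 over all genes tested). In this list 0 genes had an unadjusted p under 0.05 (3.52% over all genes tested), 0 were called by DESeq2 and 1 of 16 had groups that did not overlap (8.87% over all genes tested). Gabarapl2, the partner of GIMAP6, had 221 ± 36.0 CPM with tamoxifen and 226 ± 47.7 CPM with oil (SD, n = 3 each; log2 fold change -0.03, SE 0.20). Map1lc3a, an autophagosome protein, had 7.96, 9.94 and 12.8 CPM with tamoxifen and 5.75, 7.50 and 6.83 CPM with oil, a log2 fold change of 0.61 (SE 0.38). Its relative Map1lc3b had 188, 159 and 177 CPM with tamoxifen and 144, 126 and 176 CPM with oil, with a log2 fold change of 0.23 (SE 0.18).

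In the BCL-2 family, the regulators of apoptosis with which some GIMAP proteins have been linked, 11 of 14 genes were tested. Of these 7 were higher and 4 lower in estimate (median of the log2 fold changes 0.08), 2 with an unadjusted p under 0.05 (3.52% over all genes tested) and 2 with groups that did not overlap (8.87% over all genes tested). Pmaip1, the pro-apoptotic protein NOXA, had 27.0, 23.4 and 31.1 CPM with tamoxifen and 18.3, 11.0 and 17.4 CPM with oil (log2 fold change 0.80, SE 0.29), and Bcl2, an anti-apoptotic protein, had 144, 178 and 150.4 CPM with tamoxifen and 110.4, 137 and 105 CPM with oil (log2 fold change 0.43, SE 0.18). Neither passed after adjustment (adjusted p = 0.999 for both, edgeR's quasi-likelihood test).

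Of 17 tested genes of lymphocyte quiescence, 8 were higher and 9 lower in estimate, the median of the log2 fold changes being -0.06, and 2 had an unadjusted p under 0.05, against 3.52% over all genes tested. These were Il7r, the receptor for the survival cytokine interleukin 7, with 24.4, 52.7 and 32.5 CPM in tamoxifen libraries and 15.5, 22.7 and 16.4 CPM in oil libraries, and Lef1, a transcription factor, with 106, 96.4 and 95.1 CPM with tamoxifen and 69.5, 73.9 and 55.0 CPM with oil. They were also the 2 of the list whose groups did not overlap, against 8.87% over all genes tested. The log2 fold changes were 1.01 (SE 0.33) and 0.58 (SE 0.19), both with an adjusted p of 0.999 by edgeR's quasi-likelihood test. The lists were chosen with earlier results of these data known.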

How the data were processed

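RNA-seq libraries were made, per the labels' protocols, from lysed cells with SMARTer Ultra Low reverse transcription and Advantage 2 PCR; the protocol text speaks of single cells. The table holds, per the file headers, a raw count and an FPKM value for each gene and library, and the authors' p-value and q-value. HISAT2, StringTie and mm10 are named in the submitters' processing notes, with no roles. The sources used here do not give the counter, the strand setting or the handling of reads matching several genes. The authors' deposited table gives a q-value of 1.0 for all 8 members and p-values of 0.207 to 0.996. The deposited FPKM values use, for 65.3% of 6663 genes with more than 1 transcript and 50 or more counts in every library, the summed length of distinct exons (within 0.1%), against 0.570% for merged exons.

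The deposited counts were fitted with edgeR 4.0.16 (R 4.3.3), with TMM factors, the default expression filter and group as the only term, over all 6 libraries. A gene was called at a Benjamini-Hochberg adjusted p under 0.05, and standard errors come from the quasi-likelihood F statistic. On counts simulated for tamoxifen against oil (10603 genes), the fit called 39% of 100 genes changed by 1 on the log2 scale and 79% of 100 changed by 2. The changed genes were drawn at random from all genes past the filter, so these shares are not specific to the GIMAP genes. In the fit of the libraries the median SE was 0.17 over the members and 0.29 over all genes tested. Both sets were changed in the same simulation, and counts were drawn at the trended dispersion, without spread of dispersion between genes. Many changed genes loosen the adjusted threshold, so these shares may be too high for the libraries themselves, where 1 gene was called. A gene listed at 0 could hold up to 3 counts, 0.466 to 0.573 CPM, from counting error alone. Alternatives used DESeq2 1.42.0 and limma 3.58.1 (log2 of FPKM plus a pseudocount). Sequences were read with Python 3.11.15. Named genes were the members, cluster neighbours, the 5 genes most like the family, and the 2 genes with the smallest p per list. Rora, Gabarapl2, marker genes, and genes said to be named after their values were seen stand outside this rule. The members and lists were chosen with earlier results of these data known.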

Additional observations from a re-analysis of the deposited data

How the results depend on the processing

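None of the 8 members passed the threshold under any of 12 alternatives (RLE factors, DESeq2, no filter, the replicate block, limma on FPKM with either pseudocount, and each library left out), the lowest adjusted p being 0.617 for Gimap8 without oil replicate 3. Of 96 member values, 80 kept their direction and 16 turned. Without the filter the log2 fold change was -0.0019 for Gimap1 and -0.0013 for Gimap3, and with limma on log2(FPKM + 1) it was -0.0045 for Gimap1 and -0.0026 for Gimap3, and on log2(FPKM + 0.1) -0.0050 and -0.0027 for the same genes. Leaving out each library gave -0.097 to 0.061 for Gimap1, -0.12 to 0.083 for Gimap3, -0.0995 to 0.11 for Gimap4, -0.034 to 0.18 for Gimap5, -0.052 to 0.020 for Gimap6, -0.23 to -0.039 for Gimap7, -0.62 to 0.026 for Gimap8 and 0.046 to 0.29 for Gimap9. Over all genes, the 1 call became 18 with DESeq2, 6 without the filter, 0 with the replicate block, and 0 (without tamoxifen replicate 3) to 6 (without tamoxifen replicate 1) with a library left out; the cause was not tested. Replicates are given here in the order of the deposited columns, which number them 1, 3 and 4 in both groups. The labels do not say whether shared replicate numbers pair the libraries, and 3 libraries per group cannot decide it. Deviations of same-numbered libraries correlated at -0.0711, 0.266 and 0.164, and those of differently numbered libraries at -0.328 to 0.165. Not every library correlated best with its own number. With the block, the log2 fold change was -0.32 for Gimap8 (SE 0.25), and no member was called. The summed family level differed by -0.01 on the log2 scale and by -0.05 to 0.04 with a library left out. On length scales chosen after seeing the data, 4 of 8 members kept their place in the FPKM order on merged exons and 5 on the longest protein-coding transcript, scales that differ from FPKM in the length used and in the TMM factors. With 3 against 3 libraries and 0 calls among the members, the 95% intervals give the sizes of change not excluded.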

Other observations

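Interferon-inducible GTPases, another family of GTPases of immune cells, were measured with 17 tested gene models (Gbp6 under more than 1). In estimate 10 were higher and 7 lower with tamoxifen (median of the log2 fold changes 0.03), with 0 calls by edgeR's quasi-likelihood test and 1 of 17 with an unadjusted p under 0.05 (3.52% over all genes tested). Mx1, an antiviral GTPase, had 12.8, 10.8 and 3.44 CPM in tamoxifen libraries and 5.60, 1.65 and 2.77 CPM in oil libraries, and the groups overlapped. Gbp9, a guanylate-binding protein, had 50.7, 56.5 and 57.1 CPM with tamoxifen and 34.4, 52.7 and 27.7 CPM with oil, also overlapping. The 2 of 17 models whose groups did not overlap (8.87% over all genes tested), named after their values were seen, were Irgm1, with 145, 137 and 152 CPM with tamoxifen and 90.6, 115 and 136 CPM with oil, and Igtp, with 213, 204 and 206 CPM with tamoxifen and 193, 175 and 184 CPM with oil.

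The number of Gimap1os counts per Gimap1 count was 0.749, 0.382 and 0.633 in tamoxifen libraries and 0.415, 0.413 and 0.520 in oil libraries. It was highest and lowest within the tamoxifen group, and the groups overlapped.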
